A study of Mus musculus with 8 samples.

Results

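The interaction of the Venus and SSEA-1 states was measured in all 8 samples of the series, 2 clones by 4 sorted fractions, so that 8 of 8 samples were members. For each probe and clone the interaction was computed as the difference between V+S- and V+S+ cells, less the difference between V-S- and V-S+ cells, on the log2 scale. A positive interaction means that loss of SSEA-1 went with a larger increase, or a smaller decrease, in Venus positive than in Venus negative cells. A value of 0 means that the Venus and SSEA-1 differences added up.

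The cells were HV ES cells, a 129/Ola mouse line with an internal ribosome entry site and the Venus fluorescent protein knocked in to the Hex locus, grown in serum with LIF. The parental line also carried the biotin ligase BirA, which all 4 fractions shared. Clones 5.1 and 16.1, each 1 clonal line, were separated by flow cytometry into Venus negative, SSEA-1 positive cells (V-S+), Venus positive, SSEA-1 positive cells (V+S+), Venus negative, SSEA-1 negative cells (V-S-) and Venus positive, SSEA-1 negative cells (V+S-), none of which received another treatment. Each of the 8 samples was labelled with Cy3 and hybridised with a Cy5-labelled reference RNA pooled from mouse cell lines, without a dye swap. The sample titles and source names gave the fractions, since the design text of the series names V-S+ in 2 places and leaves out V+S-. Values are log2 ratios of sample to reference, with 1 sample per fraction and clone (n = 2 clones). Of 42006 distinct probes, 29484 were tested. In the Cy3 channel the median signal over background lay between 2.36 and 2.87 in the 8 samples, and no spot was saturated. Saturation in Cy5 was not counted, and the number of arrays limits the precision. Each clone occupied its own slide, and clone and slide therefore cannot be told apart. Where 4 values are given for a clone, they follow 1 order: Venus negative cells with SSEA-1, Venus negative cells without it, Venus positive cells with SSEA-1 and Venus positive cells without it. With clone as a block, the p-values measure only how far differences between fractions disagree between these 2 clones, moderated over all probes by limma.

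Hex, a homeobox transcription factor, is expressed in the primitive endoderm (PrEn), the extra-embryonic layer that separates from the epiblast in the blastocyst, and SSEA-1 is a carbohydrate antigen found on the surface of undifferentiated mouse ES cells. Gata6, Sox7 and Dab2 belong to the PrEn programme, whereas Nanog and Pou5f1 (Oct4) belong to the pluripotency network. Primitive endoderm cells secrete a basement membrane rich in laminin and type IV collagen, and some go on to form migratory parietal endoderm. In sorted populations, fewer cells of a type and less RNA per cell cannot be told apart.

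The oligonucleotides that measured the genes on which the results turn are identified here by the opening 30 of their 60 bases, 5′ to 3′, with no base marked. The deposited files give them no genome position. A supplementary probe list of the study, selected on these same arrays, gives the symbols, and RefSeq assigns the chromosome of each gene. Itga11, Sox7, Thbs1 and Col1a2 are shown for interactions that were positive, and Tdgf1, Spon1 and Slc27a2 for interactions that were negative. Nanog and Pou5f1 are shown as the central regulators of the pluripotency network.
Itga11 (chromosome 9): tcccctatgcggtacgacctttactgtcag
Sox7 (chromosome 14): agtcccggatggatattaataatctcgtga
Thbs1 (chromosome 2): cttaaaactactgttgtgtctaaaaagtcg
Col1a2 (chromosome 6): tggccccgtctgtttcaaataagtgaactc
Tdgf1 (chromosome 9): tccctaatgttacccctcaaaacactaact
Spon1 (chromosome 7): gatctcagctgtgagctcattagcaggttt
Slc27a2 (chromosome 2): ggcttcaatcccacagtcatcaaagatacc
Nanog (chromosome 6): tcttagaagcgtgggtcttggtatacactg
Pou5f1 (chromosome 17): ggcccggaagagaaagcgaactagcattga

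Loss of SSEA-1 went with different changes in Venus positive and Venus negative cells for 254 probes, and for nearly all of them the V+S- fraction held more transcript than the Venus and SSEA-1 differences added together would give. The interaction was higher for 244 probes (0.828% of the 29484 tested) and lower for 10 (0.0339%), at an FDR of 0.05 and a size above 1.5-fold, in limma with clone as a block. All 254 had the same sign in both clones. Among the 1998 tested probes that carry a symbol, 163 were higher (8.16%) and 5 lower (0.25%). The list that gives these symbols was selected by the study for differences between the fractions on these arrays and was used here in a shortened form, so the counts of named genes are not independent evidence of a direction.

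The FDR of the called probes was close to the threshold, with a lowest adjusted p of 0.0357, whereas 5776 probes had an unadjusted p below 0.05 (3781 positive and 1995 negative). This split depended on the scaling, with 2677 positive and 2438 negative for the processed signals of the scanner software, 2991 and 2936 for the Cy3 channel alone, and 11187 and 272 with median centring. No probe was called without clone as a block, with the processed signals of the scanner software, with the authors' log10 values, with the Cy3 channel alone or with an unmoderated test, where from 2340 to 5927 probes passed 0.05 before adjustment. Leaving out any 1 of the 4 samples of clone 5.1, or V-S- or V+S- of clone 16.1, gave 0 calls, with 3346 to 4959 probes below that unadjusted p in limma. With median centring of the arrays in place of loess 2249 were called higher and 7 lower, and the median of all interactions was 0.20 in place of 0.01. There was 1 call without V-S+ of clone 16.1, and 738 higher and 78 lower without V+S+ of clone 16.1. All 254 probes kept their sign in each of these fits, or all 202 of those present in the authors' table. Since the 254 were chosen for their size and had 1 sign in both clones, the kept sign says nothing of stability.

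The Venus difference took the largest share of the variation among the fractions. Averaged over the SSEA-1 states, the Venus difference was called for 1810 probes as higher and 741 as lower (together 8.65% of those tested). The SSEA-1 difference averaged over the Venus states was called for 84 as higher and 26 as lower (0.373%). Of the sum of squares among the 4 fraction means, the median share over probes was 66.6% for the Venus difference, 11.9% for the SSEA-1 difference and 9.69% for the interaction, which rose to 21.4% when arrays were centred on their median and loess was left out. Error between samples enters all 3 shares. The interaction took 15.6% in clone 5.1 and 7.2% in clone 16.1, a spread (SD of 5.95) that is wide against the value itself. For the SSEA-1 difference no probe was called without clone as a block (3067 had an unadjusted p below 0.05 in limma), with the processed signals (6179), with the authors' values (4116) or with an unmoderated test (5308). Without a sample of clone 5.1 there were 0 calls for V-S+, V+S+ or V+S- (5161, 5483 and 5531 unadjusted) and 16 for V-S-, and without a sample of clone 16.1 there were 0 for V+S- (5603 unadjusted) and 26 for V-S+.

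Among the 244 probes with a higher interaction, V+S- was the fraction that stood apart from the other 3 in 242, and V-S- in 2. The median difference with SSEA-1 loss was -0.15 in Venus negative cells and 0.76 in Venus positive cells, against 0.00 and 0.02 over all tested probes. For 213 of the 244 the mean was lower without SSEA-1 in Venus negative cells and higher without SSEA-1 in Venus positive cells, and 190 of these showed both directions in both clones. The opposed direction was carried mainly by the Venus positive side, since 195 probes exceeded V+S+ by over 1.5-fold in V+S- and 1 probe in V-S- lay below V-S+ by as much. Read along the other axis, the median Venus difference was 0.45 among SSEA-1 positive cells and 1.42 among SSEA-1 negative cells. All 244 probes were higher in Venus positive cells when SSEA-1 was absent, and 229 also when it was present. These counts and medians describe probes chosen by the same test, which favours such patterns. Shares over all tested probes were not computed for these counts. Of the 254 called probes, 253 were well above background in every fraction.

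**Figure D1:**
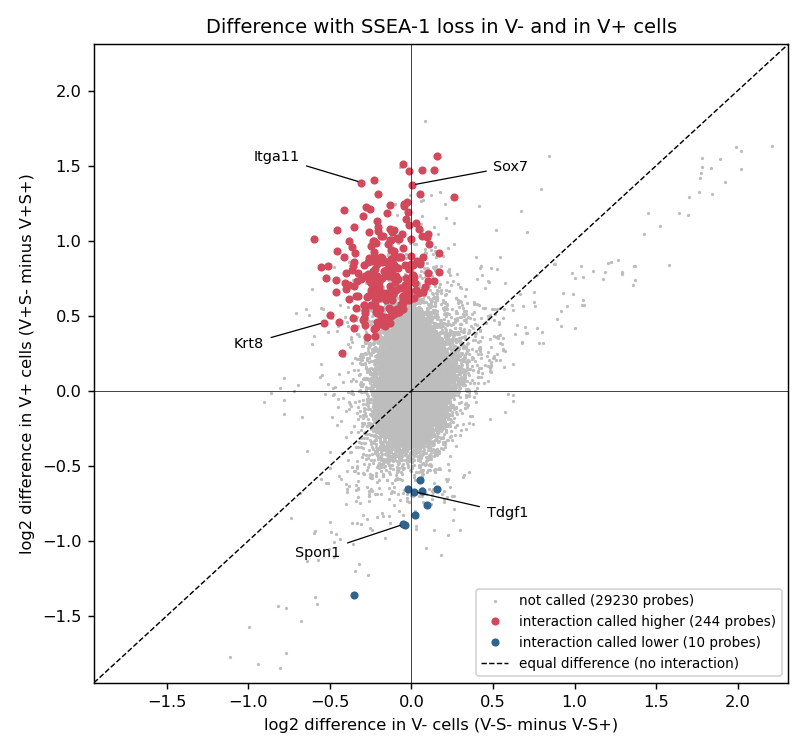
Each point is a tested probe, with the mean log2 difference between V-S- and V-S+ on the horizontal axis and that between V+S- and V+S+ on the vertical axis (2 clones). The 244 probes called higher (red) lie above the dashed line of equal differences, mostly left of 0 and above 0, and the 10 called lower (blue) lie below it. A stretch of probes not called (grey) follows the line at the upper right, where both differences are large.

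The largest interaction belonged to Itga11, which encodes an integrin chain that binds collagen. Among Venus negative cells of clone 5.1 its log2 ratio was -1.27 with and -1.51 without SSEA-1, and among Venus positive cells -0.77 with and 0.80 without. In clone 16.1 it was -0.91, -1.28, -0.18 and 1.02 in the same order. V+S- was the highest fraction in both clones and did not overlap any other, whereas V-S- was the lowest. The interaction was 1.69 ± 0.14 (SE, n = 2 clones, adjusted p = 0.0357 in limma), 1.81 in clone 5.1 and 1.57 in clone 16.1. Expressed as a ratio, the fold change with SSEA-1 loss in Venus positive cells was 3.23 times that in Venus negative cells. The directions were opposed, with log2 differences of 1.39 in Venus positive and -0.31 in Venus negative cells.

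The next largest included genes of the cell surface, the matrix and the cytoskeleton. Pcdh18, a protocadherin, had an interaction of 1.63 ± 0.20, and Prss23, a serine protease, of 1.61 ± 0.21. Postn, the matrix protein periostin, had 1.56 ± 0.17, Adamts4, a protease of proteoglycans, 1.51 ± 0.14, and Axl, a receptor tyrosine kinase, 1.5 ± 0.16. Col1a2, a chain of type I collagen, had 1.48 ± 0.21, Nts, which encodes neurotensin, 1.47 ± 0.16, and Col8a1, a short-chain collagen, 1.47 ± 0.14. Emp1, a membrane protein of epithelia, had 1.45 ± 0.12, Vim, the intermediate filament vimentin, 1.41 ± 0.16, and Maf, a leucine zipper transcription factor, 1.41 ± 0.20. These errors are SEs from limma, and the adjusted p was 0.0357 for all of them but Col1a2 (0.0435) and Maf (0.0438). Of the 12 largest, 10 had a mean in V-S- below that of V-S+, the exceptions being Vim and Maf.

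The pattern was alike in Axl and Col1a2. Axl measured -3.62, -3.82, -3.10 and -1.69 in clone 5.1, and -3.30, -3.66, -2.45 and -1.40 in clone 16.1. Col1a2 measured -5.38, -5.35, -5.08 and -3.69 in clone 5.1 and -5.12, -5.18, -4.45 and -2.90 in clone 16.1. Both were far below the reference pool in every fraction, and in both the V+S- values lay above all others. Among probes without a symbol, the 2 with the largest positive interactions, Z00074362-1 and Z00004700-1, had 1.62 ± 0.18 and 1.52 ± 0.16 (SE, adjusted p = 0.0357 for both in limma).

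**Figure D2:**
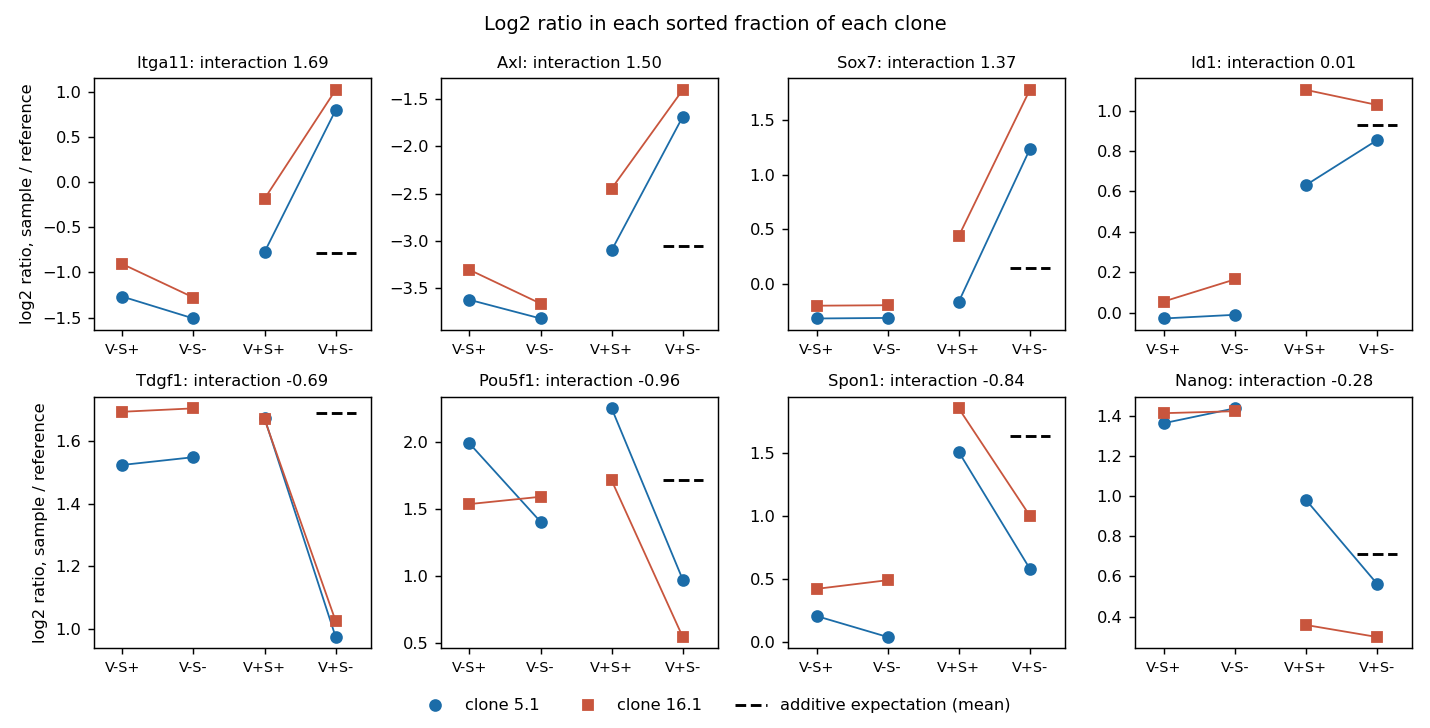
Log2 ratio of sample to reference (vertical axis, scaled to each gene) in the 4 fractions of clone 5.1 (circles) and clone 16.1 (squares), with lines joining the SSEA-1 states within a Venus state. The dashed bar is the mean level of V+S- if the Venus and SSEA-1 differences were additive. Itga11, Axl and Sox7 lie above the bar, Tdgf1, Pou5f1 and Spon1 below it, and Id1 has it between its 2 clones.

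Each clone gives its own value of the interaction. Across the 29484 probes the values of the clones correlated with r = 0.609, a correlation over probes that share arrays and are not independent, and 67.4% had the same sign. The interaction was positive in both clones for 37.5% of all probes and for 58.2% of those with a symbol, and negative in both for 30% and 24.2%. The SD over probes was 0.28 in clone 5.1 and 0.231 in clone 16.1. The values within each clone are also values within each slide.

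**Figure D3:**
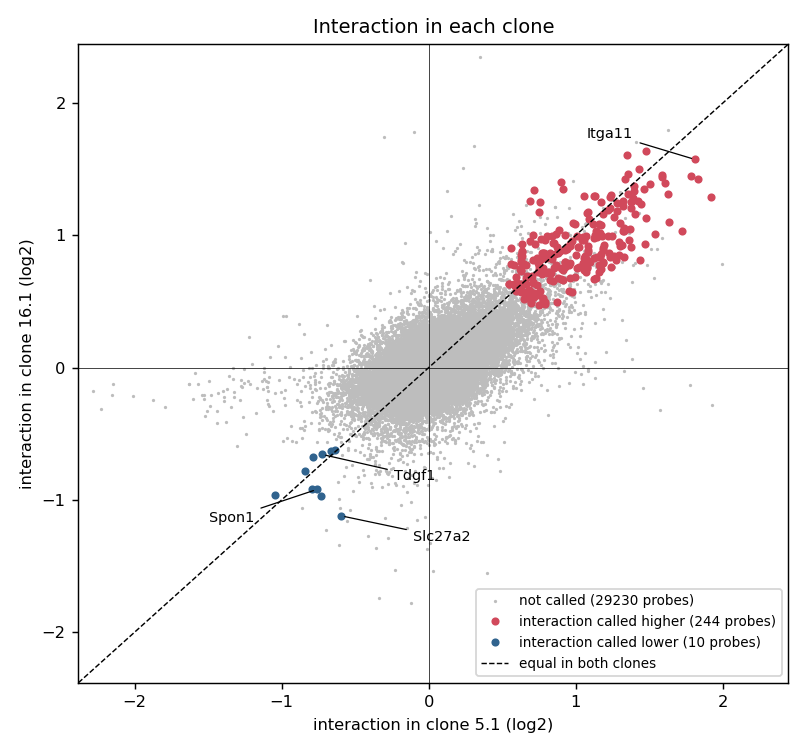
Interaction of each tested probe (log2) in clone 5.1 on the horizontal axis and in clone 16.1 on the vertical axis, with the dashed line where both are equal. The 244 probes called higher (red) and 10 called lower (blue) lie in the upper right and lower left corners, and Itga11 stands at 1.81 and 1.57.

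The named PrEn genes had positive interactions in both clones. Of 30 listed genes 12 had a named probe. All 12 were positive in both clones, against 58.2% of the probes with a symbol, and 2 were called, Sox7 and Thbd, where 8.16% of the probes with a symbol were. The median was 0.62, against 0.22 over the probes with a symbol and 0.01 over all probes tested. Sox7, an endodermal transcription factor, measured -0.32, -0.31, -0.17 and 1.23 in clone 5.1, and -0.20, -0.20, 0.44 and 1.78 in clone 16.1. Both V+S- values stood clear of all others, while the SSEA-1 states did not separate among Venus negative cells. The interaction of Sox7 was 1.37 ± 0.19 (SE, adjusted p = 0.042, limma). Thbd, which encodes thrombomodulin and is made by parietal endoderm, had an interaction of 1.09 ± 0.14 (SE, adjusted p = 0.0357, limma).

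Gata6 and Dab2 did not pass the test. Gata6, a transcription factor at the head of the PrEn programme, measured -2.62, -2.43, -2.45 and -1.50 in clone 5.1, and -2.67, -2.56, -2.50 and -1.98 in clone 16.1. Its interaction was 0.59 with a 95% interval of 0.23 to 0.95 (adjusted p = 0.117, limma). Dab2, an endocytic adaptor, had an interaction of 0.51 with an interval of 0.14 to 0.89 (adjusted p = 0.156, limma). In both genes V+S- was the highest fraction of each clone. Serpinh1, a collagen chaperone, and Col4a2, a chain of type IV collagen, missed the threshold by less, with 0.85 ± 0.15 and 1.00 ± 0.18 (SE, adjusted p of 0.0554 and 0.0615 in limma). As a mean over the 12 genes, the log2 ratio was from -0.33 to -0.21 in V+S-, from -1.13 to -0.69 in V+S+ and from -1.55 to -1.31 in the Venus negative fractions.

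Among pluripotency genes a single interaction was called, and it was negative. Of 34 listed genes 15 had a named probe, of which 1 was called lower and 14 were not called, where 0.25% of the probes with a symbol were called lower and 8.16% higher. The interaction was negative in both clones for 7, against 24.2% of the probes with a symbol, and positive in both for 1. The median was -0.11, with -0.34 in clone 5.1 and 0.07 in clone 16.1, and it was 0.13 with median centring of the arrays in place of loess. Tdgf1, the Nodal co-receptor Cripto, was the one called. It measured 1.52, 1.55, 1.67 and 0.97 in clone 5.1 and 1.69, 1.70, 1.67 and 1.02 in clone 16.1. Only the V+S- values were low, and the other 6 lay from 1.52 to 1.70. Its interaction was -0.69 ± 0.09 (SE, adjusted p = 0.0378, limma).

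Pou5f1 had a more negative interaction with a wider error. It measured 1.99, 1.40, 2.25 and 0.97 in clone 5.1 and 1.54, 1.59, 1.71 and 0.54 in clone 16.1. V+S- was the lowest fraction in each clone, and the SD between clones was 0.32 in V-S+. Its interaction was -0.96 with a 95% interval of -1.52 to -0.40 (adjusted p = 0.105, limma). Gdf3, a member of the TGF-beta family, had -0.43 with an interval of -0.68 to -0.19 (adjusted p = 0.0999, limma), and Sall4, a zinc finger transcription factor, -0.31 with an interval of -0.56 to -0.06 (adjusted p = 0.184, limma).

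In Nanog the Venus difference was present in both SSEA-1 states. It measured 1.36, 1.44, 0.98 and 0.56 in clone 5.1 and 1.41, 1.42, 0.36 and 0.30 in clone 16.1. All 4 Venus negative values lay above all 4 Venus positive values. The Venus difference was -0.72 among SSEA-1 positive and -0.9995 among SSEA-1 negative cells, and -0.86 on average (adjusted p = 0.00107, limma). The interaction was -0.28 with a 95% interval of -0.80 to 0.24 (adjusted p = 0.535, limma), which holds 0 and also a decrease of more than 1.5-fold. Its value was -0.49 in clone 5.1 and -0.07 in clone 16.1, and with median centring it was 0.058. Dppa3 (Stella), a germline-associated gene, had a Venus difference of -1.39 (adjusted p = 0.000321, limma) and an interaction of -0.04 with an interval of -0.65 to 0.58, of opposite sign in the 2 clones (-0.36 and 0.29).

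Genes of the two-cell-like state, which marks a small share of ES cells that express transcripts of the early embryo, had no called interaction. Of 9 listed genes 5 had a named probe, and 8.16% of the probes with a symbol were called higher and 0.25% lower. The SSEA-1 difference averaged over the Venus states was called higher for Gm428 (1.21), Tcstv3 (1.81), Zscan4c (1.61) and Tcstv1 (1.67) but was under 1.5-fold for Tdpoz5 (0.43). It was called for 0.373% of all probes, and without clone as a block no probe was called for it. Over the 5 the median difference with SSEA-1 loss was 1.77 in Venus negative and 1.45 in Venus positive cells. Zscan4c, a zinc finger gene with near-identical copies that this probe may not tell apart, measured -1.70, 0.08, -1.96 and -0.19 in clone 5.1, and -0.82, 0.95, -1.99 and -0.87 in clone 16.1. V-S- was the highest fraction in each clone. Its interaction was -0.33 with a 95% interval of -1.54 to 0.89 (adjusted p = 0.786, limma), an interval with room for either sign. All 5 were negative in both clones, the median being -0.33, but without V-S+ of clone 5.1 the median was 0.09 and without V+S- of clone 16.1 it was 0.21.

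Of 30 matrix genes 25 had a named probe, of which 7 were called higher, 1 lower and 17 were not called, with a median of 0.72. Of the 1998 probes with a symbol, a set selected for differences on these arrays, 8.16% were called higher and 0.25% lower, with a median of 0.22. Next to Postn, Col1a2 and Col8a1 these were Thbs1, Col4a5, Col12a1 and Col6a3, with interactions of 1.34, 1.24, 1.13 and 1.03. Thbs1, the adhesive glycoprotein thrombospondin, measured -1.09, -1.67, -0.29 and 0.55 in clone 5.1 and -0.81, -1.26, 0.29 and 1.10 in clone 16.1. Within each clone V-S- was lowest and V+S- highest, so that the SSEA-1 difference had opposite directions in the Venus states. Of 18 fibroblast and mesenchyme markers 11 had a named probe, of which 4 were called higher (Itga11, Postn, Col1a2 and the surface protein Cd248) and 7 were not called, with a median of 0.89. Of 15 mesoderm genes 6 were named, and the transcription factors Foxc1 (1.21), Runx1 (1.00) and Snai1 (0.76) were called higher. Twist2 (0.74), Wnt3a (-0.25, negative in both clones) and Gsc (-0.01, of opposite sign in the clones) were not called, and the median was 0.75.

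The mean log2 ratio of the 11 fibroblast and mesenchyme markers ran from -1.27 to -0.86 in V+S-, from -2.19 to -1.69 in V+S+, from -2.48 to -2.31 in V-S- and from -2.44 to -2.11 in V-S+. As a mean over the list, V+S- did not overlap the other fractions. The PrEn list showed the same separation, so it was not particular to these markers. Since 4 of the 11 markers were themselves called, the mean partly restates those calls. It does not hold for each marker. Lrrc15 had a V+S- mean of 0.18, below its V-S+ mean of 0.89, and interactions of -0.03 (clone 5.1) and 0.32 (clone 16.1). All 11 markers were well above background in every fraction, so that none had a signal of 0. The list means were all below the reference, a pool that included embryo fibroblasts. Single markers could lie above it, such as Itga11 in V+S- (mean of 0.91). Col1a2 and Postn are members of the matrix list too. The part of other cell types in the interaction was not tested.

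Among cytoskeletal, keratin and calcium-binding genes most members were not called. Of 24 actin and contractility genes, a list that also held the intermediate filament gene Vim, 23 were named. Of these, 3 were called higher (Vim, the skeletal actin Acta1 at 1.20 and the filamin Flnc at 0.81) and 20 were not called. The median was 0.62, and V+S- stood apart in 14. Of 25 keratin and junction genes 22 were named, with V+S- apart in 10 and a median of 0.33. The 3 called higher were the desmosomal protein Dsp (1.11) and the keratins Krt18 (1.00) and Krt8 (0.99). Krt8 measured 0.38, -0.11, 0.96 and 1.62 in clone 5.1 and 0.67, 0.08, 1.46 and 1.70 in clone 16.1. It was 1 of the 2 probes called higher in which V-S-, the lowest fraction, stood apart from the rest, the other being that of the galectin Lgals1. None of the 4 named claudins was called, with Cldn3 at 0.10, Cldn6 at 0.17, Cldn23 at 0.22 and Cldn4 at 0.50. Of 12 annexin and S100 genes 11 were named, and Anxa1 (1.28), Anxa5 (1.20) and S100a6 (0.76), all of calcium-binding proteins, were called higher, with a median of 0.53. Of all probes with a symbol 8.16% were called higher, with a median of 0.22. The share in which V+S- stood apart was not computed for them.

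**Figure D4:**
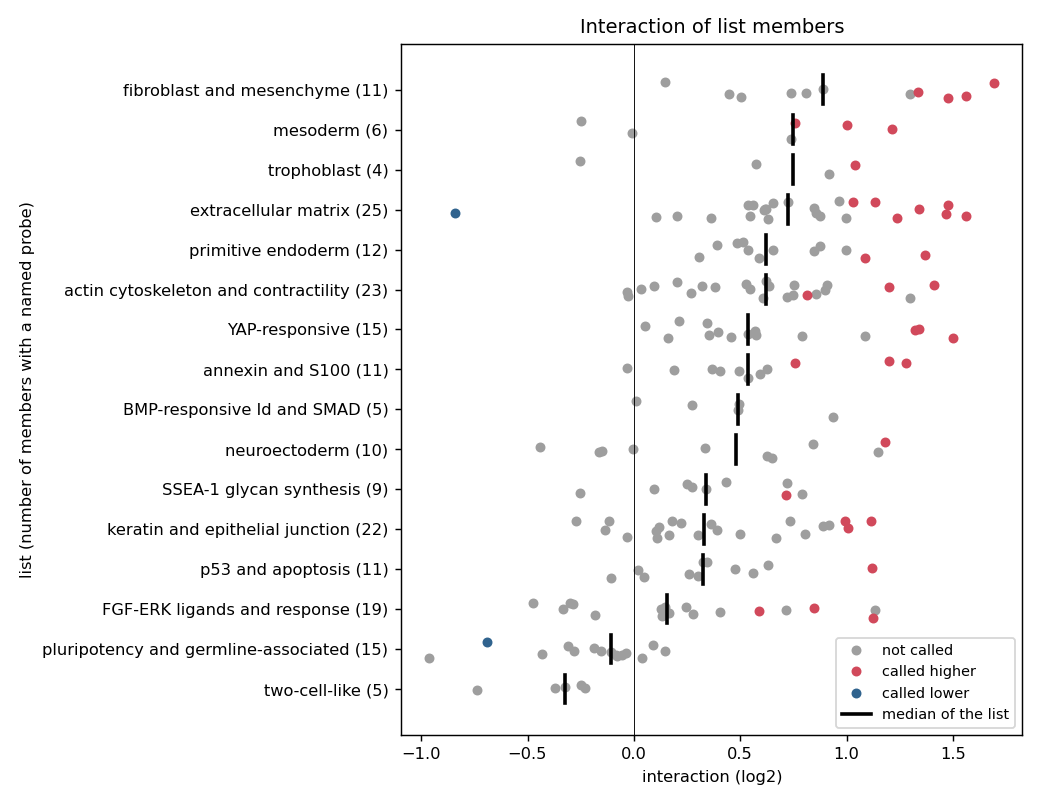
Interaction (log2, horizontal axis) of every named member of 16 gene lists, each row a list with its number of named members, in order of the median (black bar). Members called higher are red, called lower blue and not called grey. Fibroblast and mesenchyme genes have the highest median (0.89) and two-cell-like genes the lowest (-0.33).

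Of 18 YAP-responsive genes, targets of the Hippo pathway co-activator, 15 were named, with Axl, Thbs1 and the ligand Tgfb2 (1.32) called higher, 12 not called and a median of 0.54, and 13 were positive in both clones. Of the probes with a symbol 8.16% were called higher, 58.2% were positive in both clones, and the median was 0.22. Ctgf and Cyr61, widely used YAP targets named here after their values were seen, had interactions of 0.05 and 0.16 (adjusted p of 0.869 and 0.627 in limma). Ctgf measured -0.08, -0.18, 0.78 and 0.89 in clone 5.1 and 0.02, 0.09, 1.24 and 1.19 in clone 16.1. Its level followed Venus, and the SSEA-1 states lay close together in each Venus state.

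Of 30 FGF-ERK genes 19 were named, with 3 called higher, 16 not called and a median of 0.16, where 8.16% of the probes with a symbol were called higher with a median of 0.22. Those called were the feedback inhibitor Errfi1 (0.85), the immediate early gene Ier5 (1.13) and the EGF receptor ligand Hbegf (0.59). Dusp6, the phosphatase that restrains ERK, had an interaction of -0.30 with a 95% interval of -0.63 to 0.03 (adjusted p = 0.297, limma), and 0.013 with median centring. Its Venus difference was 1.06 among SSEA-1 positive and 0.76 among SSEA-1 negative cells.

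A list of 12 BMP-responsive Id genes and genes of SMAD signalling, not all of them specific to BMP, had 5 named genes. None was called, the median was 0.49, and 3 of the 5 (Id2, Smad3 and Smurf1) had an unadjusted p below 0.05 in limma. Of the probes with a symbol 8.16% were called higher, with a median of 0.22, and 5776 of the 29484 tested had an unadjusted p below 0.05. Id1, an inhibitor of helix-loop-helix factors, measured -0.03, -0.01, 0.63 and 0.85 in clone 5.1 and 0.05, 0.16, 1.10 and 1.03 in clone 16.1. All Venus positive values lay above all Venus negative ones whether or not SSEA-1 was present. Its interaction was 0.01 with a 95% interval of -0.31 to 0.33 (adjusted p = 0.981, limma), 0.20 in clone 5.1 and -0.18 in clone 16.1. The related Id2 had 0.49 with an interval of 0.13 to 0.85 (adjusted p = 0.157, limma), and Smad3, a transducer of TGF-beta signals, 0.94 ± 0.16 (SE, adjusted p = 0.0581, limma).

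Genes of glycan synthesis, among them some that act on other glycans than SSEA-1, were examined because the sort used that antigen. Fut9, the fucosyltransferase that completes it in ES cells, measured 0.85, 0.41, 0.72 and 0.10 in clone 5.1 and 0.95, 0.62, 0.88 and 0.23 in clone 16.1. In each clone both SSEA-1 negative fractions were below both SSEA-1 positive ones, which goes with the labels of the sort. The SSEA-1 difference was -0.51 on average (adjusted p = 0.0201, limma), which is under 1.5-fold and so was not called. It was -0.38 in Venus negative and -0.64 in Venus positive cells. The interaction was -0.25 with a 95% interval of -0.44 to -0.06 (adjusted p = 0.165, limma). Of 12 genes of this list 9 were named and 1 was called higher, Fut8 (0.72 ± 0.10, SE, adjusted p = 0.0424 in limma), which fucosylates the core of N-glycans rather than SSEA-1. The median was 0.34, and of the probes with a symbol 8.16% were called higher with a median of 0.22.

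The remaining lists held 1 called gene each, where 8.16% of the probes with a symbol were called higher with a median of 0.22. Of the lists of other lineages, 10 of 16 neuroectoderm genes were named, with 1 called higher, the homeobox gene En1 (1.18), and a median of 0.48. Of these 10, 6 were positive in both clones and 3 negative in both, among them Pou3f1 (-0.44). Of 10 trophoblast genes 4 were named, with Plac1 (1.04) called higher and a median of 0.75. Of these 4, 3 were positive in both clones and Tcfap2c (-0.25) was negative in both. Among all probes with a symbol, 58.2% were positive in both clones and 24.2% negative in both. Of 15 p53 and apoptosis genes 11 were named, with the death receptor Fas (1.12) called higher and a median of 0.32. The adjusted p was 0.0357 for En1, Plac1 and Fas in limma.

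Of the 10 probes with a lower interaction, V+S- stood apart as the lowest fraction in 6 and V+S+ as the highest in 4. Tdgf1, described above, and LOC668932, a predicted locus with an interaction of -0.81 ± 0.08 (SE), belonged to the first kind, as did the unnamed probes Z00075047-1 (-0.85 ± 0.13, SE) and Z00004931-1 (-0.85 ± 0.13, SE). The adjusted p of these 3 was 0.0357, 0.0471 and 0.0498 in limma. Spon1, which encodes the matrix protein F-spondin, belonged to the second. It measured 0.20, 0.04, 1.51 and 0.58 in clone 5.1 and 0.42, 0.49, 1.85 and 1.00 in clone 16.1. V+S+ held the highest value of each clone, V+S- lay between it and the Venus negative fractions, and the interaction was -0.84 ± 0.10 (SE, adjusted p = 0.0357, limma).

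Slc27a2, an acyl-CoA synthetase of fatty acids, shared this profile. It measured -0.71, -0.70, 0.16 and -0.43 in clone 5.1 and -0.49, -0.30, 0.64 and -0.29 in clone 16.1. Only the V+S+ values were above the reference. Its interaction was -0.86 ± 0.13 (SE, adjusted p = 0.0471, limma). BC017612, a gene known by its clone name, had -1.01 ± 0.11 (SE, adjusted p = 0.0357, limma), with V+S+ highest and V+S- lowest in both clones.

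Promoter sequences were searched for motifs that the genes with a higher interaction might share, in the 250 bases before each RefSeq start site (GRCm38.p6), on both strands. Of the 163 named genes called higher, 119 matched an entry, with 161 promoters. The AP-1 motif TGANTCA was in 5.59% of these and in 6.75% of all 32851 promoters. The TEAD motif GGAATG was in 12.4% and 12.6%, the GATA motif AGATAA in 8.7% and 9.99%, and the TATA motif TATAAA in 12.4% and 12.4%. Among 1715 promoters of named genes that were not called, the shares were 6.18%, 12.5%, 5.77% and 9.33%. None of these shares is a test, and a match is a string of letters, not a bound site. The windows of Axl, the YAP-responsive gene with the largest interaction, and of Tdgf1, the pluripotency gene with a called interaction, are shown with AP-1, TEAD and TATA matches in capitals.
Axl (GRCm38.p6, chr7:25788734-25788983, minus strand): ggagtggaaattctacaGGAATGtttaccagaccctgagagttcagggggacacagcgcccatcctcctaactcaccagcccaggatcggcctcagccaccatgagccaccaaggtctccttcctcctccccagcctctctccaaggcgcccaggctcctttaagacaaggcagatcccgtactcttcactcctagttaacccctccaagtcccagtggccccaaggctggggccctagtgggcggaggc
Tdgf1 (GRCm38.p6, chr9:110946159-110946408, minus strand): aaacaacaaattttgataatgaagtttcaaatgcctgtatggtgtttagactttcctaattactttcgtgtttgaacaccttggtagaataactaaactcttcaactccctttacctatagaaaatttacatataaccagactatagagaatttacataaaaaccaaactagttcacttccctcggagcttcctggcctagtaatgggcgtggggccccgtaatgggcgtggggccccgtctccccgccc
Axl held 1 TEAD match and Tdgf1 none of the 4 motifs.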

How the data were processed

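The authors deposited scanner files of two-colour arrays with the Cy3 and Cy5 intensity of every spot (Agilent Feature Extraction, 2 repeat scans per array, 16 files) and a table of processed log10 values for 25164 probes. After removal of each probe's mean, the deposited log10 table matched the scanner software's processed ratios (r = 1), which gave its scale and direction. Its medians in clones 5.1 and 16.1 were 2.333 and 2.336 in V+S-, and from 2.311 to 2.325 in the other samples. Its centring stays unknown, so differences between samples were used. The array design number in the headers differs from that in the study's methods.

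Mean signals and local backgrounds were corrected by normexp (offset of 50) and each scan was normalized by loess in limma 3.58.1 under R 4.3.3. Control spots and outliers were left out, and the 2 scans were averaged. A probe was tested if well above background in both clones of at least 1 fraction (29495 probes, less 11 without a value in every sample). The model held fraction and clone (lmFit, eBayes). Calls required an FDR of 0.05 (Benjamini-Hochberg over all probes) and more than 1.5-fold. Clone pairs the samples, since the fractions of a number come from 1 cell line. Clone differences correlated between fractions with r from 0.59 to 0.81 across probes.

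Genes were named through the study's supplementary probe list by rule: the 12 largest called interactions in each direction with the same sign in both clones (5 were negative), up to 4 list members with the smallest p, genes tied to the sort or named by the study, and 2 unnamed probes per direction. Col4a5, Col12a1, Col6a3, Cldn3, Cldn4, Cldn6, Cldn23, Ctgf, Cyr61, Tcstv1, Wnt3a, Gsc, Lgals1 and Lrrc15 were named after their values were seen. Members and lists were chosen with earlier results of these data known. A fraction stood apart if leaving it out gave the smallest range among the other 3 means. The scripts were tested on simulated data.

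Alternatives were processed scanner signals, no background correction, median centring, Cy3 alone with quantile normalization, other filters, single scans, the authors' values, no block, no moderation, no fold threshold and each sample left out. The fit restricted to probes that the authors' table holds was chosen after seeing the data.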

Additional observations from a re-analysis of the deposited data

Results flagged for a closer look

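The change with SSEA-1 loss differed between Venus positive and Venus negative cells, by the test of the interaction itself, in 17 genes chosen by rule. The interaction (log2) was 1.69 for Itga11, 1.63 for Pcdh18, 1.61 for Prss23, 1.56 for Postn, 1.51 for Adamts4, 1.5 for Axl, 1.48 for Col1a2, 1.47 for Nts, 1.47 for Col8a1, 1.45 for Emp1, 1.41 for Vim and 1.41 for Maf. It was -1.01 for BC017612, -0.86 for Slc27a2, -0.84 for Spon1, -0.81 for LOC668932 and -0.69 for Tdgf1. The rule required the same sign in both clones.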

How the results depend on the processing

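The number of calls depended on the processing. The interaction was higher for 0 probes with processed scanner signals, with Cy3 alone, with the authors' log10 values, without the replicate block and with an unmoderated test, and lower for 0 with each of these. In limma 5115, 5927, 3422, 2340 and 4561 probes then had an unadjusted p below 0.05. Median centring in place of loess gave 2249 higher and 7 lower, and moved the median interaction of all probes from 0.01 to 0.20. Restriction to the probes of that table, chosen after seeing the data, gave 264 higher and 6 lower. Leaving out each sample in turn gave from 0 to 738 higher, from 0 to 78 lower and from 0 to 91 for the SSEA-1 difference. The SSEA-1 difference (110 calls) was called for 0 with processed signals, the authors' values, no replicate block and the unmoderated test, and for 896 without a fold threshold. The Venus difference (2551 calls) was called for 4553 with processed signals and 14655 without a fold threshold. The share of variation in the interaction was 21.4% with median centring. Every named called gene kept its sign in every fit in which its probe was present, which its selection by size favours. Of those not called, the interaction reversed with median centring in Nanog (0.058), Dppa3 (0.27), Dusp6 (0.013) and Tcfap2c (0.048), and with Cy3 alone in Id1 (-0.065). Leaving out each sample in turn gave both signs in Dppa3 (-0.40 to 0.33), Id1 (-0.15 to 0.17), Tcstv3 (-0.94 to 0.21), Zscan4c (-0.95 to 0.30) and Tcfap2c (-0.55 to 0.047). The cause of these changes was not tested. Depth is not a limit of these arrays in the sense of counts. The median Cy3 signal was between 2.36 and 2.87 times background, and 2 clones limit the precision.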
